A study of Mus musculus with 21 samples.

Results

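Mouse embryonic fibroblasts in which Cre acted on floxed *Rtel1* were compared directly with fibroblasts that kept the gene and were treated with TMPyP4. RTEL1 is a helicase of the replisome and of telomeres that unwinds G-quadruplexes (G4), folded structures of guanine-rich DNA, and takes apart telomeric loops. TMPyP4 is a cationic porphyrin that binds and stabilizes G4 DNA, so the gene of an enzyme that removes G4 was targeted in one group, and the other held a ligand that keeps G4 folded. The comparison asks which genes separate deletion of the helicase gene from the ligand, a question that neither group answers when it is set against untreated cells alone.

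Of the 21 RNA-seq libraries of the series, 6 were compared, 3 in each of 2 groups, chosen by their labels. The *Rtel1* F/F +Cre group carried floxed *Rtel1* alleles and was infected with adenovirus expressing Cre and GFP, without ligand. The *Rtel1* F/F +GFP +TMPyP4 group (TMPyP4 below) carried the same floxed alleles, was infected with adenovirus expressing GFP alone and received TMPyP4 at 10 μM for the last 48 h. Both were collected 96 h after infection. Libraries of the same replicate number were taken as pairs for the pair differences and in alternative fits with a replicate block. The main fit, behind the calls and fold changes where no alternative is named, has no such block. The libraries are written C1 to C3 (+Cre) and T1 to T3 (TMPyP4), and 3 values in a row are in that order. The enzyme in the virus, the ligand and the time of exposure all differ between the groups, so their parts in any difference cannot be told apart. The other 15 libraries entered the fit for its estimate of the spread. They were 3 of untreated *Rtel1* F/F +GFP cells (+GFP below), 3 with GFP and 3 with Cre of *Rtel1* F/F cells transduced with RTEL1 C1252A/C1255A, and 3 with GFP and 3 with Cre of *Terf1* floxed cells (Trf1f/f in the labels). The +GFP levels are given beside the genes as a description. The labels call the replicates biological and do not say whether they came from separate embryos.

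Total counts were 43896564, 40729951 and 37651982 in the +Cre libraries and 32069888, 42008482 and 43013208 in the TMPyP4 libraries. Levels are given in CPM, read counts scaled to the normalized library size. *Rtel1* (chr2:181319711-181356616 of GRCm38) had 29.9, 31.9 and 26.8 CPM in +Cre against 66.3, 79.0 and 71.0 CPM in TMPyP4. Reads of *Rtel1* thus remained in +Cre, and counts per gene do not tell transcripts of deleted alleles from those of intact ones. Every +Cre library lay below every TMPyP4 library, and the log2 fold change (always +Cre minus TMPyP4, so that negative values are higher in TMPyP4) was -1.29 ± 0.079 (SE, n = 3 per group, as for all fold changes). Same-numbered +Cre and TMPyP4 libraries deviated from their group means together, with correlations across 11375 genes of 0.77, 0.81 and 0.47 for replicates 1, 2 and 3. Against +GFP libraries of the same number these were -0.026, 0.048 and 0.15 for +Cre and 0.044, 0.067 and 0.17 for TMPyP4. The block in 21 libraries used below also ties +GFP libraries by number. Genes are not independent replicates, so these values describe the libraries and carry no test. Principal component 1 of the 6 libraries (46.2% of variance) separated the groups, and component 2 (31.2%) set C2 and T2 at one end.

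Of 10 fibroblast markers all 10 passed the filter on low counts. *S100a4*, a calcium-binding protein of motile fibroblasts, was the most abundant of them per transcript length (mean 2502 TPM), while *Lum* had 3 counts or fewer in each of the 6 libraries. *Dcn*, *S100a4* and *Pdgfra* were called higher in +Cre and *Col3a1* and *Pdgfrb* higher in TMPyP4. The sum of the 10 was 7107, 4820 and 6461 CPM in +Cre against 9587, 6609 and 7945 CPM in TMPyP4, while the sum per transcript length was 6232, 5875 and 6123 TPM in +Cre against 5922, 5129 and 5427 TPM in TMPyP4. The 8 epithelial markers summed to 7.37, 5.16 and 7.48 CPM in +Cre against 3.39, 3.20 and 4.39 CPM in TMPyP4, with *Krt19* the most abundant and *Krt5* at 0. Of them *Krt18* was called higher in +Cre and *Cdh1* higher in TMPyP4. The 9 macrophage and leukocyte markers summed to at most 3.94 CPM, the 6 endothelial markers to at most 0.744 CPM and the 7 skeletal myogenic markers to at most 0.819 CPM, and 0 of 5 erythroid markers passed the filter. Among 7 neural and glial markers *Nes*, an intermediate filament that fibroblasts also express, was the most abundant, with means of 448 CPM in +Cre and 322 CPM in TMPyP4. It was not called by edgeR (adjusted p 0.0152) but called in 7 alternative fits, by DESeq2 (0.00206) and with the block in 21 libraries (0.00149) among them. *Tubb3* had 12.6, 6.40 and 13.5 CPM in +Cre against 23.6, 15.4 and 21.4 CPM in TMPyP4 and was not called by edgeR (adjusted p 0.0250) but called in 5 alternative fits, by DESeq2 (0.00522) and with the block in 21 libraries (0.00116) among them. *Mbp* was called higher in TMPyP4 (-0.79 ± 0.13), and *Sox10* and *Rbfox3* were at 0. The 6 chondrocyte and osteoblast markers summed to 33.5, 21.7 and 31.0 CPM in +Cre against 34.0, 23.0 and 29.9 CPM in TMPyP4, with *Sox9* the most abundant per length and *Ibsp* at 0. Within that sum *Sox9* (1.11 ± 0.16) and *Acan* (0.76 ± 0.20) were called higher in +Cre, and *Col2a1* had 9.51, 3.45 and 9.23 CPM in +Cre against 22.1, 13.2 and 19.1 CPM in TMPyP4. *Col2a1* was not called by edgeR (adjusted p 0.0204) but called in 5 alternative fits, by DESeq2 (0.00749) and with the block in 21 libraries (0.00978) among them. The 6 adipocyte markers, led by *Pparg*, summed to 5.34, 5.86 and 5.11 CPM in +Cre against 7.61, 8.65 and 8.05 CPM in TMPyP4, with *Plin1* and *Cidec* at 0, and *Pparg* was called higher in TMPyP4. Calls ended for *Cdh1* (adjusted p 0.0210 without C1, 0.0175 without C3, 0.0253 without T3, range 8.3e-04 to 0.0392), *Acan* (adjusted p 0.0223 without C1, 0.0186 without C3, 0.0161 without T1, 0.0412 without T2, 0.0249 without T3, range 4.5e-07 to 0.0412) and *Pparg* (adjusted p 0.0165 without C3, range 3.0e-06 to 0.0165). The part of these markers in the results below was not tested, and in bulk RNA a lower number of cells of a type cannot be told apart from less RNA per cell.

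Called higher in TMPyP4 were 22 of 34 ATF4 and unfolded protein response genes, and called higher in +Cre were 8 of 26 cholesterol genes and 8 of 28 chemokines and cytokines. In all, the groups differed at 2088 of 13719 genes tested (15.2%), of which 841 (6.13%) were higher in +Cre and 1247 (9.09%) were higher in TMPyP4. Most differences were small. The median absolute log2 fold change of the called genes was 0.55, 1107 of them differed by less than 1.5-fold, 466 had an absolute log2 fold change of at least 1 and 117 of at least 2. All 2088 called genes went the same way in all 3 same-numbered pairs, as did 64.4% of the genes tested. At the same time 7895 genes (57.5%) were measured as close, with a 95% interval of the difference that lay within 1.5-fold, 608 of them also called. For 4344 genes (31.7%), with a median of 1.07 CPM, neither held in this fit, which has no replicate block. Calls are those of edgeR's quasi-likelihood test at a Benjamini-Hochberg adjusted p of at most 0.01. With the replicate number as a block within each line (*Rtel1* floxed, the same with C1252A/C1255A, and *Terf1* floxed), 8.43% of genes were higher in +Cre and 12.2% higher in TMPyP4, and in a fit of only the 6 libraries with that block the shares were 17.0% and 19.5%. Of the 4344 genes the block in 21 libraries called 384 and measured 686 others as close, which left 3274. The block in 6 libraries tested 3157 of them, called 1097 and measured 741 others as close, which left 1319. Without T1 or T3, 540 or 541 genes were higher in +Cre, and without C3, 752 were higher in TMPyP4.

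**Figure D1:**
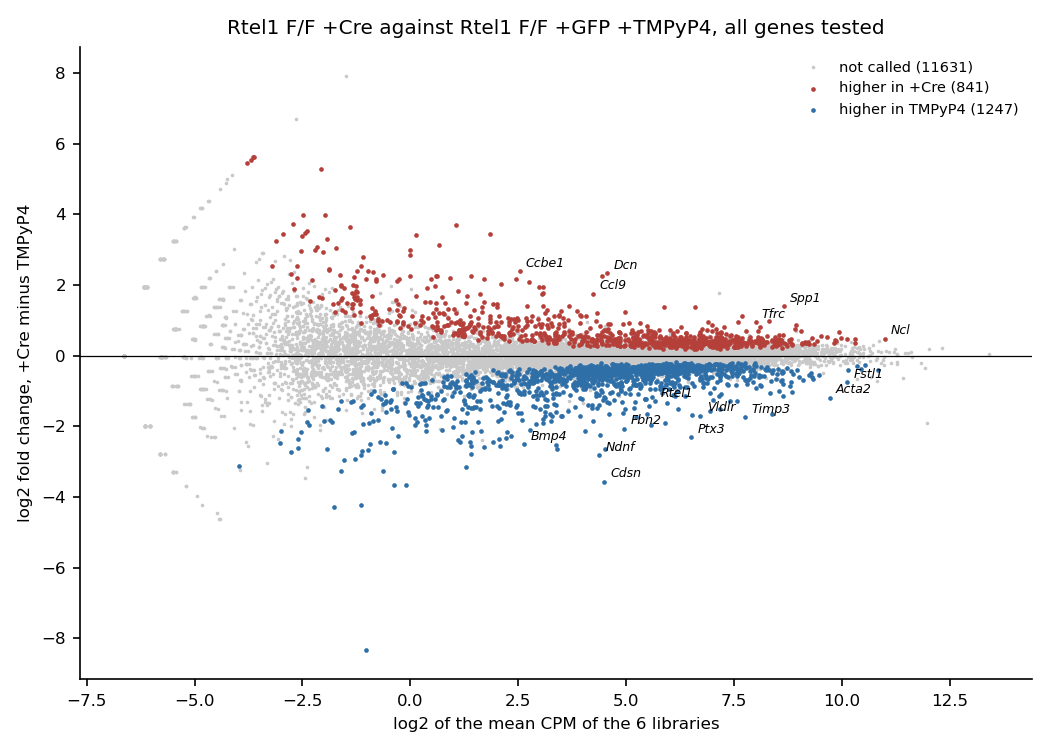
Log2 fold change of each gene tested (vertical axis, +Cre minus TMPyP4) against the log2 of its mean CPM over the 6 libraries (horizontal axis), with called genes in colour. The 841 genes higher in +Cre lie above 0, the 1247 higher in TMPyP4 lie below it, and *Cdsn* has a log2 fold change of -3.57.

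Some of these genes set 1 of the groups apart from all other 18 libraries of the series. The 3 +Cre libraries lay above all others at 84 of the 841 genes higher in +Cre (9.99%, against 0.904% of all genes tested) and below all others at 112 of the 1247 genes higher in TMPyP4 (8.98%, against 1.3%). TMPyP4 libraries lay above all others at 193 of the 1247 genes (15.5%, against 2.18%) and below all others at 75 of the 841 genes (8.92%, against 1.06%). Called genes had to differ between both groups, so these shares are a description.

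The 12 largest differences among genes higher in +Cre, with a mean of at least 5 CPM, joined matrix, signalling and immune genes. *Ccbe1*, a secreted factor of lymphatic vessel growth, had 8.93, 10.9 and 9.31 CPM in +Cre against 1.71, 1.93 and 1.89 CPM in TMPyP4. Its log2 fold change was 2.39 ± 0.11, and its +GFP libraries had 1.36, 1.85 and 1.70 CPM. *Dcn* (chr10:97479500-97518163) encodes decorin, a small proteoglycan that binds collagen and TGF-beta, and had 39.3, 38.9 and 39.7 CPM in +Cre, 8.43, 7.56 and 7.24 CPM in TMPyP4 and 12.8, 15.1 and 14.6 CPM in +GFP. The 3 levels of *Dcn* did not overlap, with TMPyP4 at the bottom and +Cre at the top, and +Cre and TMPyP4 differed by 2.35 ± 0.12 on the log2 scale. *Sema7a*, a membrane-anchored semaphorin, had 38.2, 30.7 and 39.1 CPM in +Cre against 7.67, 6.94 and 8.17 CPM in TMPyP4 (log2 fold change 2.24 ± 0.23). *Ptpn22*, a phosphatase that restrains antigen receptor signalling, had 10.0, 11.7 and 10.7 CPM in +Cre, 2.16, 2.89 and 2.63 CPM in TMPyP4 and 0.801, 0.761 and 0.601 CPM in +GFP. For this gene the TMPyP4 libraries lay above the +GFP libraries and the +Cre libraries above both. *Ccl9*, a chemokine, had 28.0, 30.7 and 28.3 CPM in +Cre against 7.86, 8.99 and 8.88 CPM in TMPyP4, and *Spp1*, the secreted matrix protein osteopontin, was the most abundant of the 12 at 526, 669.5 and 564 CPM in +Cre against 208, 234 and 220.3 CPM in TMPyP4. *Rgs16*, which shortens G-protein signalling (1.76 ± 0.20), and *Tnfrsf9*, a costimulatory receptor of the TNF receptor family (1.42 ± 0.22), also belonged to the 12. *Tnfrsf9* had 9.91, 8.88 and 9.50 CPM in +Cre, 3.30, 3.54 and 3.75 CPM in TMPyP4 and 6.90, 11.8 and 10.9 CPM in +GFP, so the TMPyP4 libraries were the low ones. The remaining 4 were *3300005D01Rik*, *1810011O10Rik*, *Hmga2-ps1* and *Gm12603*, with log2 fold changes from 1.73 to 2.18. Each of the 12 kept its call under every alternative that gave it a value, where *Hmga2-ps1* has no GC content for the corrected fits.

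The 12 largest differences in the other direction were headed by *Cdsn* (chr17:35543101-35557180), which encodes corneodesmosin, an adhesion protein of cornified epithelium. It had 3.87, 2.43 and 4.18 CPM in +Cre, 42.7, 36.9 and 44.4 CPM in TMPyP4 and 18.1, 15.8 and 17.0 CPM in +GFP, so +Cre lay lowest and TMPyP4 highest, and the log2 fold change was -3.57 ± 0.19. The +GFP level differed from gene to gene. *Ndnf*, a secreted factor for neurons and vessels, had 4.59, 5.19 and 5.73 CPM in +Cre, 36.7, 38.8 and 33.9 CPM in TMPyP4 and 79.4, 167 and 145 CPM in +GFP (log2 fold change -2.82 ± 0.21). *Fzd1*, a Wnt receptor, had 6.20, 5.73 and 6.99 CPM in +Cre, 42.7, 37.3 and 38.4 CPM in TMPyP4 and 74.4, 144 and 129.5 CPM in +GFP (-2.65 ± 0.18). *Fbn2*, the microfibril protein fibrillin of developing tissue, had 14.6, 9.70 and 11.4 CPM in +Cre, 62.8, 42.3 and 44.8 CPM in TMPyP4 and 175, 249.8 and 203 CPM in +GFP (-2.07 ± 0.24). For each of these 3 genes the +Cre libraries were the lowest and the +GFP libraries the highest. *Ptx3*, a pentraxin of innate immunity and matrix assembly, had 31.4, 28.6 and 32.1 CPM in +Cre, 141, 152 and 164 CPM in TMPyP4 and 111, 147 and 137 CPM in +GFP, so that TMPyP4 and +GFP overlapped while +Cre stood apart (-2.31 ± 0.11). *Slc1a6*, a glutamate transporter, had 6.595, 6.25 and 5.76 CPM in +Cre, 27.8, 25.8 and 27.7 CPM in TMPyP4 and 21.2, 24.6 and 25.1 CPM in +GFP, with +Cre again the lowest group (-2.12 ± 0.093). The others were *Igf1*, the insulin-like growth factor (-2.26 ± 0.14), the BMP ligand *Bmp4* (-2.52 ± 0.21), the collagen-binding integrin *Itga11* (-2.27 ± 0.16), the collagen *Col8a2* (-2.54 ± 0.19), *Lrrc17*, a secreted leucine-rich repeat protein (-2.64 ± 0.093), and the serpin *Serpina3g* (-2.11 ± 0.25). *Serpina3g* had 2.49, 2.88 and 2.29 CPM in +Cre, 12.4, 10.3 and 10.5 CPM in TMPyP4 and 54.0, 129 and 118 CPM in +GFP, a wide gap between +GFP and both other groups. These 12 also kept their calls under every alternative tried.

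**Figure D2:**
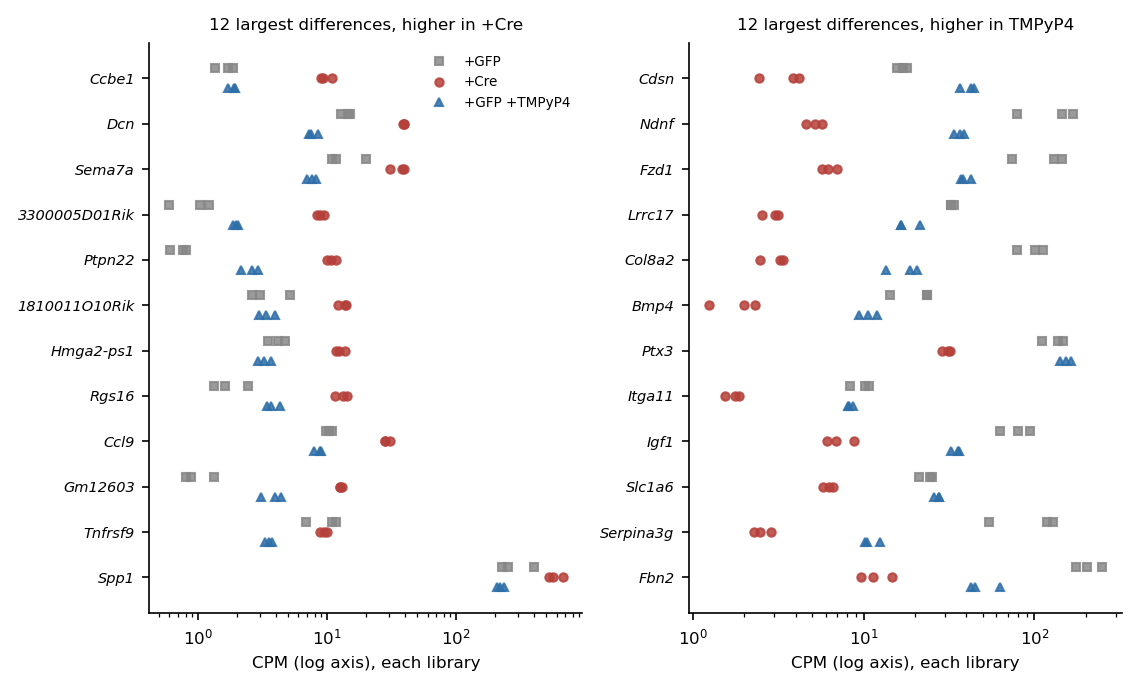
Levels in CPM (log axis) of the 12 genes with the largest differences in each direction, each point 1 library of +GFP, +Cre or +GFP +TMPyP4 cells. The +Cre and TMPyP4 points of all 24 genes do not overlap, as for *Cdsn* at 3.87, 2.43 and 4.18 CPM in +Cre and 42.7, 36.9 and 44.4 CPM in TMPyP4.

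The differences were then read through 30 lists of genes by role, beside 6.13% of all genes tested higher in +Cre, 9.09% higher in TMPyP4 and a median log2 fold change of -0.0027. Of all 13719 genes tested, 4902 had an unadjusted p under 0.05 by edgeR in either direction. Among all 24454 genes DESeq2 called 1082 higher in +Cre and 1325 higher in TMPyP4. The lists and their members were chosen with earlier results of these data known. No set test was made, so a share says how many members differed and no more. Where a replicate block moved a count by over 1.5 times, the numbers higher in +Cre and in TMPyP4 follow as blocked (21 libraries), 6-library blocked or GC-corrected blocked (21 libraries). In the GC-corrected blocked fit, 13.1% of 13611 genes of known span were higher in +Cre and 15.1% higher in TMPyP4. Members named outside the rule for named genes were chosen after their values were seen. Where a call ended without 1 library, the adjusted p of edgeR without it is given, followed by its range over all alternatives. Where it ended only under other settings, the value there is given, with 6 libraries meaning a fit of the 6 compared and 9 libraries that of the 9 unmodified *Rtel1* floxed ones. Lists whose called members are not all named have the number of calls that held under every alternative other than the minimum fold.

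**Figure D3:**
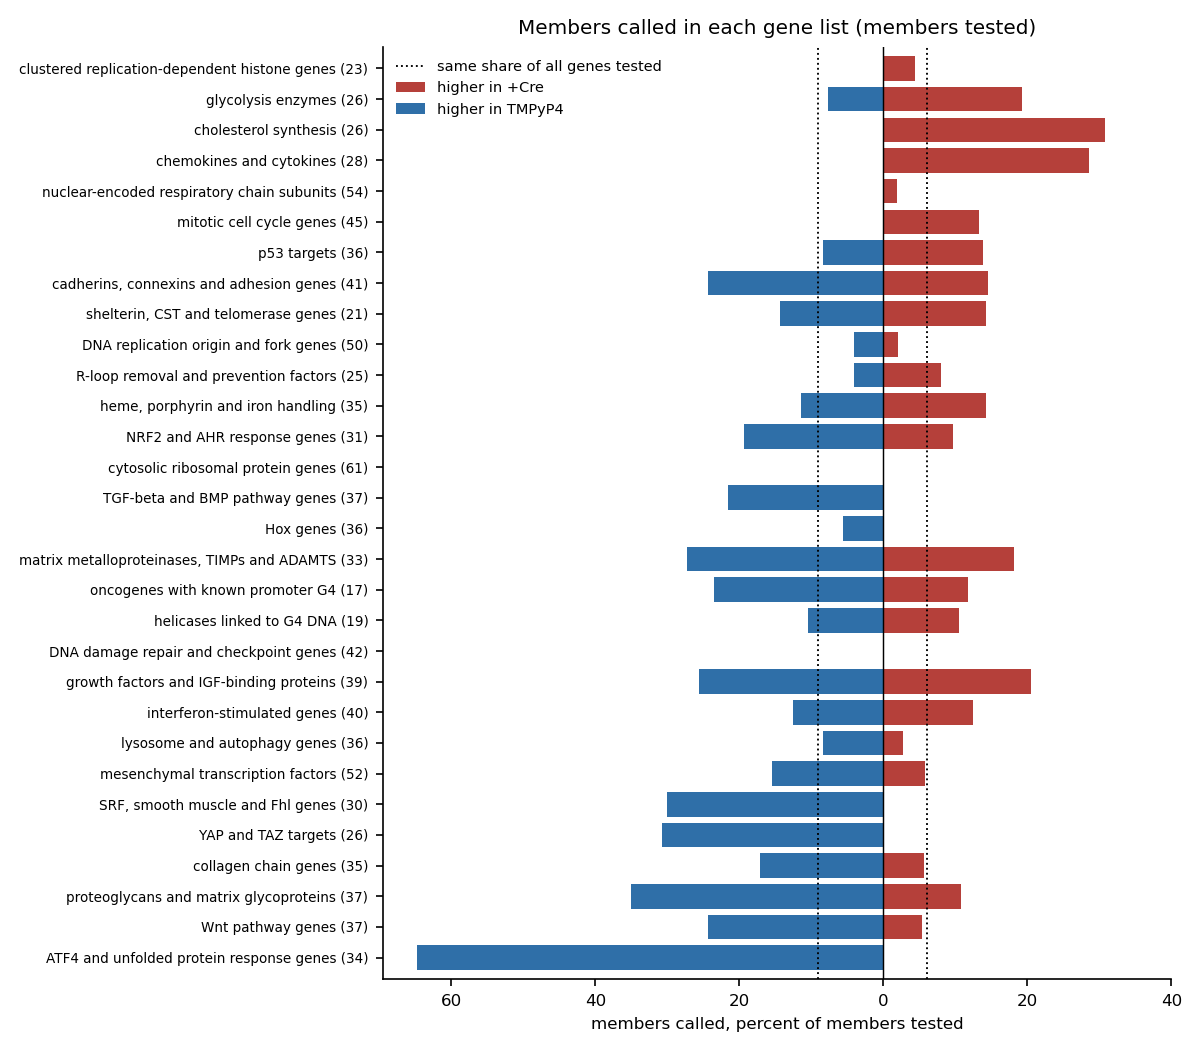
Share of the members tested that were called in each of 30 gene lists (horizontal axis, percent, higher in TMPyP4 to the left and higher in +Cre to the right), ordered by median log2 fold change, with the members tested in parentheses and the same shares of all genes tested as dotted lines. The list of ATF4 and unfolded protein response genes reaches 64.7% to the left, and the cholesterol list 30.8% to the right.

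Of the 30 lists, that of ATF4 and the unfolded protein response had the largest share of members called, a description given how the lists were chosen. ATF4 is a transcription factor whose translation rises under amino acid or endoplasmic reticulum stress, and its targets make and import amino acids. Of 34 members tested, 0 were higher in +Cre and 22 (64.7%) in TMPyP4 (blocked 1 and 26, 6-library 2 and 27, GC-corrected 2 and 27), with a median log2 fold change of -0.69. DESeq2 called 1 and 24, and 29 members had an unadjusted p under 0.05 in either direction. Of the 22 calls 19 held under every alternative. *Atf4* itself had 466, 490.2 and 517 CPM in +Cre against 663, 742 and 752 CPM in TMPyP4 (log2 fold change -0.55 ± 0.075). The pseudokinase gene *Trib3* had 22.7, 14.9 and 21.1 CPM in +Cre, 82.3, 62.1 and 82.6 CPM in TMPyP4 and 44.5, 38.5 and 43.5 CPM in +GFP (-1.95 ± 0.20). *Vldlr*, a lipoprotein receptor, had 46.9, 53.3 and 49.6 CPM in +Cre, 160.3, 168 and 158 CPM in TMPyP4 and 91.2, 80.9 and 78.6 CPM in +GFP (-1.70 ± 0.069). In both genes the 3 groups did not overlap, with +GFP in the middle. *Ddit3*, which encodes the factor CHOP, had 22.1, 18.3 and 23.8 CPM in +Cre against 49.1, 51.8 and 57.0 CPM in TMPyP4 (-1.30 ± 0.12). *Chac1*, which degrades glutathione, had 27.7, 19.3 and 30.6 CPM in +Cre against 62.2, 55.6 and 65.1 CPM in TMPyP4 (-1.24 ± 0.18).

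The asparagine synthetase gene *Asns* had 282, 364 and 314 CPM in +Cre against 536, 604 and 595 CPM in TMPyP4 (-0.86 ± 0.12). The amino acid transporter genes *Slc7a11*, *Slc7a5* and *Slc3a2* had log2 fold changes of -1.23 ± 0.13, -1.05 ± 0.16 and -0.85 ± 0.091. *Herpud1*, of the degradation of misfolded proteins, had 71.6, 65.5 and 67.0 CPM in +Cre against 127, 120.4 and 122 CPM in TMPyP4, with no overlap. Of the chaperones of the endoplasmic reticulum, *Hspa5* had 1397, 1493 and 1471 CPM in +Cre against 1227, 1237 and 1254 CPM in TMPyP4, with an interval of the difference from 0.10 to 0.36 on the log2 scale. *Hsp90b1* had 1489, 1925 and 1689 CPM in +Cre against 1441, 1616 and 1571 CPM in TMPyP4, with an interval from -0.078 to 0.36. Both intervals lie within 1.5-fold. *Hspa5* was not called by edgeR (adjusted p 0.0127) but called higher in +Cre in 4 alternative fits, by DESeq2 (0.00289) among them. *Sdf2l1* was not called by edgeR (log2 fold change 0.36, adjusted p 0.0511). It was called higher in +Cre in 4 alternative fits, with the block in 21 libraries (0.00312) among them. No fit called *Hsp90b1* or the members *Pdia4*, *Dnajb9* and *Edem1*, which had log2 fold changes of 0.067, -0.024 and -0.075.

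Since 22 members of this list were higher in TMPyP4, their promoters were searched for TGATGNAA, letters known from elements that ATF4 binds with C/EBP partners. The search covered both strands from 250 bases before to 50 after the start, and the motif was chosen after seeing the data. RefSeq promoters of GRCm38 were found for 33 of 34 members. The motif was in 9 of the 33, and 3.97% of all 32851 promoter sequences hold it. Members and motif were both chosen for ATF4, so the count is a description and no comparison. A match describes letters and not a bound site. The stretches are shown for 6 of the 9 genes so that the letters can be compared, read 5′ to 3′ on the strand of the gene, with the motif or its complement in capitals.
Vldlr, chr19:27216795-27216852, plus strand: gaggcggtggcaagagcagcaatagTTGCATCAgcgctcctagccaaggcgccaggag
Chac1, chr2:119351024-119351081, plus strand: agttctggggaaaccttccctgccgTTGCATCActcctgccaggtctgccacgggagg
Slc7a11, chr3:50443628-50443704, minus strand: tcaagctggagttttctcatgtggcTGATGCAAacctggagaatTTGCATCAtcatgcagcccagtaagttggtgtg
Asns, chr6:7693210-7693257, minus strand: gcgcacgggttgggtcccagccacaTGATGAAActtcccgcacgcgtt
Atf3, chr1:191183411-191183468, minus strand: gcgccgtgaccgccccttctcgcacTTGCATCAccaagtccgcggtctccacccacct
Herpud1, chr8:94386292-94386349, plus strand: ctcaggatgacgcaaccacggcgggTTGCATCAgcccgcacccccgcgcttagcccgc

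Of 26 cholesterol genes, 8 (30.8%) were higher in +Cre and 0 in TMPyP4 (blocked 6-library 16 and 0, GC-corrected 16 and 0), with a median log2 fold change of 0.23. DESeq2 called 11 and 0, and 15 members had an unadjusted p under 0.05 in either direction. Of the 8 calls 3 held under every alternative. Of the 26 genes 13 were measured as close. *Idi1*, an isomerase of isoprenoid synthesis, had 611, 718 and 658 CPM in +Cre against 363, 426 and 426 CPM in TMPyP4 (0.71 ± 0.14). *Hsd17b7*, a later reductase, had 54.4, 68.5 and 61.5 CPM in +Cre against 36.6, 43.2 and 41.3 CPM in TMPyP4 (0.61 ± 0.11). Every +Cre library exceeded every TMPyP4 library at these 2 genes. *Srebf2*, the regulator of the pathway, was not called, at 475, 232 and 365 CPM in +Cre against 494, 294 and 361 CPM in TMPyP4.

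Of 28 chemokines and cytokines tested, 8 (28.6%) were higher in +Cre and 0 in TMPyP4 (blocked 6-library 12 and 3, GC-corrected 9 and 1), with a median log2 fold change of 0.17. DESeq2 called 10 and 0, and 14 members had an unadjusted p under 0.05 in either direction. Of the 8 calls 5 held under every alternative, and 1 more wherever counts were high enough for a value. In all 3 pairs 13 members were higher in +Cre and 5 higher in TMPyP4. *Ccl5*, which draws T cells, had 43.2, 42.5 and 47.0 CPM in +Cre, 19.6, 16.7 and 19.8 CPM in TMPyP4 and 58.5, 54.4 and 63.2 CPM in +GFP (1.25 ± 0.17). *Cxcl10*, an interferon-induced chemokine, had 146, 170.1 and 158 CPM in +Cre, 78.7, 87.2 and 81.3 CPM in TMPyP4 and 151, 102 and 113 CPM in +GFP (0.94 ± 0.16). At both genes the TMPyP4 libraries were the lowest of the 9. The neutrophil chemokine *Cxcl1* had 15.6, 17.7 and 16.9 CPM in +Cre against 7.74, 8.65 and 8.41 CPM in TMPyP4 (1.02 ± 0.16), and the alarmin *Il33* had 3.496, 5.63 and 3.93 CPM in +Cre against 1.08, 0.650 and 1.00 CPM in TMPyP4 (2.27 ± 0.25).

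**Figure D4:**
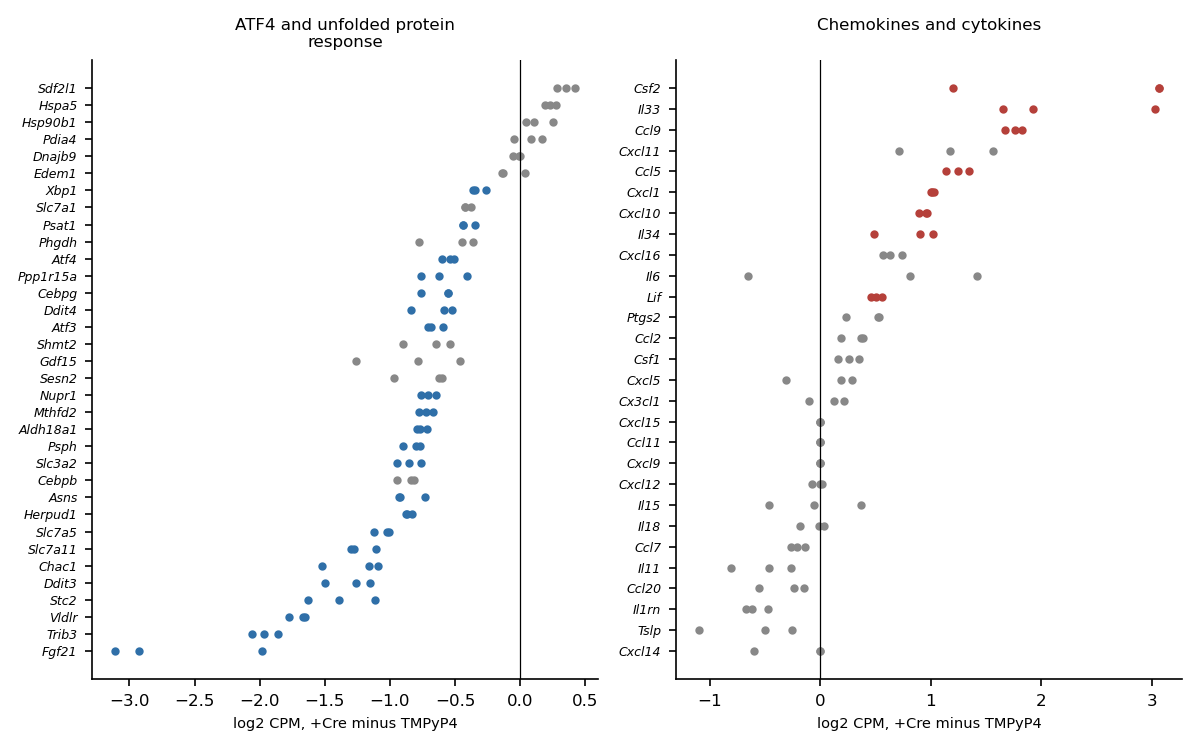
Difference in log2 CPM between +Cre and TMPyP4 libraries of the same replicate number (horizontal axis, 3 points per gene) for the members of the ATF4 and chemokine lists, with called genes in colour and the others in grey. All 3 points of *Vldlr* lie left of 0, at -1.77, -1.65 and -1.67, and all 3 of *Ccl9* lie right of it, at 1.82, 1.76 and 1.67.

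Matrix genes were divided. Of 37 proteoglycans and matrix glycoproteins tested, 4 (10.8%) were higher in +Cre and 13 (35.1%) in TMPyP4 (blocked 6-library 7 and 17, GC-corrected 7 and 15), with a median log2 fold change of -0.25. Without C1, C3, T1 or T2, 2 were higher in +Cre. Of the 17 calls 12 held under every alternative. The 4 higher in +Cre were *Dcn*, *Spp1*, the cartilage proteoglycan *Acan* (0.76 ± 0.20) and the tenascin *Tnxb* (1.51 ± 0.37). Calls ended for *Acan* (adjusted p 0.0223 without C1, 0.0186 without C3, 0.0161 without T1, 0.0412 without T2, 0.0249 without T3, range 4.5e-07 to 0.0412) and *Tnxb* (adjusted p 0.0283 without C1, 0.0124 without C3, 0.0128 without T1, 0.0356 without T2, range 5.8e-08 to 0.0356). *Fbln5*, which assembles elastic fibres, had 73.0, 80.6 and 70.5 CPM in +Cre, 201, 224 and 216 CPM in TMPyP4 and 227, 246 and 249 CPM in +GFP (-1.51 ± 0.078). *Postn*, the matrix protein periostin, had 5.197, 4.57 and 3.71 CPM in +Cre, 16.4, 15.0 and 13.2 CPM in TMPyP4 and 8.68, 13.0 and 10.5 CPM in +GFP (-1.72 ± 0.19), with TMPyP4 the highest of the 3 groups. *Ogn*, a small leucine-rich proteoglycan like decorin, had 19.8, 25.5 and 20.4 CPM in +Cre, 67.6, 68.1 and 68.9 CPM in TMPyP4 and 133, 255 and 211 CPM in +GFP (-1.64 ± 0.19). *Fmod* and *Prelp*, of the same family, were higher in TMPyP4 too (-3.15 ± 0.27 and -2.45 ± 0.22), whereas *Dcn* was higher in +Cre.

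Of 35 collagen genes tested, 2 (5.71%) were higher in +Cre and 6 (17.1%) in TMPyP4 (blocked 3 and 10, 6-library 3 and 13, GC-corrected 4 and 11), with a median log2 fold change of -0.19. Without C1, C3, T1, T2 or T3, 1 was higher in +Cre. Of the 8 calls 6 held under every alternative. *Col3a1*, a fibrillar collagen of soft tissue, had 269.8, 201 and 266 CPM in +Cre, 601, 485 and 552 CPM in TMPyP4 and 1268, 1271 and 1222 CPM in +GFP (-1.15 ± 0.14), and the 3 groups did not overlap. *Col11a1*, of thin fibrils, had 50.2, 44.1 and 50.8 CPM in +Cre against 90.3, 84.7 and 92.5 CPM in TMPyP4 (-0.88 ± 0.091). *Col1a1*, of the main fibrils of bone and skin, had 1899, 644 and 1353 CPM in +Cre against 2888, 1287 and 1794 CPM in TMPyP4, with an interval from -1.64 to 0.41, and was not called by edgeR (adjusted p 0.406) but called in 1 alternative fit, with the block in 6 libraries (3.2e-04). The 2 higher in +Cre were *Col7a1*, of anchoring fibrils (1.25 ± 0.32), and *Col10a1*, of hypertrophic cartilage (1.05 ± 0.15). Calls ended for *Col7a1* (adjusted p 0.0550 without C1, 0.0199 without C3, 0.0194 without T1, 0.0394 without T2, 0.0365 without T3, range 1.3e-06 to 0.0550).

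Enzymes that cut or cross-link matrix, with their inhibitors, went both ways. Of 33 tested, 6 (18.2%) were higher in +Cre and 9 (27.3%) in TMPyP4, with a median log2 fold change of -0.010 (0.016 with DESeq2 size factors and 0.051 with a GC correction). Of the 15 calls 10 held under every alternative, and 2 more wherever counts were high enough for a value. *Timp3*, a matrix-bound protease inhibitor, had 96.1, 103 and 99.2 CPM in +Cre, 313, 341 and 347 CPM in TMPyP4 and 231, 285 and 255 CPM in +GFP (-1.75 ± 0.085). *Lox*, which cross-links collagen, had 307, 317 and 287 CPM in +Cre against 627, 626 and 614 CPM in TMPyP4 (-1.04 ± 0.074), and *Adamts5*, an aggrecanase, had 12.3, 9.18 and 9.04 CPM in +Cre against 27.3, 25.3 and 28.2 CPM in TMPyP4 (-1.40 ± 0.11). These 3 lay higher in every TMPyP4 library than in every +Cre library. *Mmp10* and *Mmp13* were called higher in +Cre on few reads, with 0.163, 0.149 and 0.109 CPM in +Cre against 0, 0 and 0 CPM in TMPyP4 for *Mmp10* and 0.117, 0.174 and 0.137 CPM in +Cre against 0, 0 and 0 CPM in TMPyP4 for *Mmp13*. *Plat*, the tissue plasminogen activator, had 121, 133 and 141 CPM in +Cre, 89.1, 92.9 and 88.9 CPM in TMPyP4 and 208, 221 and 227 CPM in +GFP and was higher in +Cre (0.54 ± 0.069).

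Growth factors were divided as well. Of 39 members tested, 8 (20.5%) were higher in +Cre and 10 (25.6%) in TMPyP4, with a median log2 fold change of -0.045. Of the 18 calls 11 held under every alternative, and 1 more wherever counts were high enough for a value. Ligands of the EGF receptor higher in +Cre were *Hbegf*, with 153, 179 and 162 CPM in +Cre against 93.0, 95.4 and 82.5 CPM in TMPyP4 (0.87 ± 0.098), *Ereg* (1.15 ± 0.16) and *Areg* (1.36 ± 0.15). The lymphatic growth factor *Vegfc* had 15.4, 16.8 and 14.8 CPM in +Cre, 6.47, 7.61 and 8.24 CPM in TMPyP4 and 3.90, 3.17 and 3.03 CPM in +GFP, with +Cre the highest group (1.07 ± 0.11). *Igf1* had 6.13, 8.81 and 6.91 CPM in +Cre, 36.0, 36.0 and 32.4 CPM in TMPyP4 and 62.7, 94.7 and 80.7 CPM in +GFP, and the 3 groups did not overlap. *Igf2* had 0.746, 0.670 and 1.01 CPM in +Cre against 5.26, 3.90 and 3.99 CPM in TMPyP4 (-2.44 ± 0.26), and *Igfbp4*, which binds both factors, had 1.35, 1.59 and 2.38 CPM in +Cre against 7.23, 6.07 and 5.78 CPM in TMPyP4 (-1.85 ± 0.18). *Bdnf* was higher in TMPyP4 (-0.56 ± 0.068).

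TGF-beta, BMP and Wnt signals guide mesenchymal growth and differentiation. Of 37 TGF-beta and BMP pathway members, 0 were higher in +Cre and 8 (21.6%) in TMPyP4 (blocked 1 and 10, 6-library 3 and 12, GC-corrected 1 and 10), with a median log2 fold change of 0.0056 (0 with a GC correction). DESeq2 called 1 and 9, and 17 members had an unadjusted p under 0.05 in either direction. Of the 8 calls 5 held under every alternative. *Tgfb3*, a ligand, had 22.1, 16.9 and 22.4 CPM in +Cre against 43.3, 40.5 and 43.8 CPM in TMPyP4 (-1.06 ± 0.11). *Inhbb*, a subunit of activin, had 4.801, 3.499 and 4.23 CPM in +Cre, 12.9, 10.0 and 12.9 CPM in TMPyP4 and 6.92, 7.83 and 7.41 CPM in +GFP (-1.51 ± 0.15). The receptor gene *Tgfbr2* had 193, 179 and 184 CPM in +Cre against 334, 289.7 and 309 CPM in TMPyP4 (-0.75 ± 0.079). *Tgfbi*, a matrix protein induced by TGF-beta, had 51.4, 53.4 and 56.1 CPM in +Cre, 103, 103 and 92.7 CPM in TMPyP4 and 214, 321 and 306 CPM in +GFP (-0.89 ± 0.11), and its +Cre libraries were the lowest of the 9.

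Of 37 Wnt pathway members, 2 (5.41%) were higher in +Cre and 9 (24.3%) in TMPyP4 (blocked 6-library 2 and 16, GC-corrected 2 and 14), with a median log2 fold change of -0.32. Without C3, T1 or T3, 1 was higher in +Cre. Of the 11 calls 3 held under every alternative, and 2 more wherever counts were high enough for a value. *Axin2*, a target and brake of the canonical pathway, had 1.14, 0.670 and 1.04 CPM in +Cre against 4.69, 3.01 and 2.94 CPM in TMPyP4 (-1.89 ± 0.23). *Tcf7l2*, a nuclear effector, had 11.7, 10.8 and 9.80 CPM in +Cre against 16.8, 16.7 and 14.2 CPM in TMPyP4 (-0.56 ± 0.098). The ligand gene *Wnt6* had 4.94, 2.51 and 3.74 CPM in +Cre, 18.2, 9.47 and 11.3 CPM in TMPyP4 and 31.7, 41.4 and 43.0 CPM in +GFP (-1.79 ± 0.32). The 2 higher in +Cre encode secreted inhibitors and were low, with *Sfrp1* at 0.606, 0.645 and 0.682 CPM in +Cre against 0.222, 0.217 and 0.119 CPM in TMPyP4 and *Dkk2* at 0.606, 0.769 and 1.01 CPM in +Cre against 0.317, 0.482 and 0.334 CPM in TMPyP4. Calls ended for *Tcf7l2* (adjusted p 0.0148 with 6 libraries, range 1.1e-06 to 0.0148), *Wnt6* (adjusted p 0.0135 with 6 libraries, range 4.9e-18 to 0.0135) and *Dkk2* (adjusted p 0.0178 without C3, 0.0130 without T1, 0.0159 without T3, range 0.00116 to 0.0415).

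Serum response factor (SRF) drives contractile genes. Of 30 SRF, smooth muscle and Fhl genes, 0 were higher in +Cre and 9 (30.0%) in TMPyP4, with a median log2 fold change of -0.18. DESeq2 called 0 and 9, and 12 members had an unadjusted p under 0.05 in either direction. Of the 9 calls 5 held under every alternative. Of the 30 genes 16 were measured as close. *Acta2*, smooth muscle actin, had 539, 489.8 and 521 CPM in +Cre, 1141, 1211 and 1175 CPM in TMPyP4 and 489, 406 and 422 CPM in +GFP (-1.19 ± 0.085). *Fhl1*, a LIM protein of muscle, had 22.1, 20.1 and 18.8 CPM in +Cre, 36.6, 39.3 and 37.3 CPM in TMPyP4 and 5.36, 4.54 and 4.55 CPM in +GFP (-0.89 ± 0.073). At both genes TMPyP4 was the highest group and +GFP the lowest. *Actg2*, another smooth muscle actin (-1.42 ± 0.17), and *Lmod1*, an actin nucleator (-1.13 ± 0.12), were higher in TMPyP4 too. *Srf* was not called, at 83.8, 47.1 and 80.3 CPM in +Cre against 82.6, 57.2 and 74.4 CPM in TMPyP4.

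Among 26 targets of YAP and TAZ, coactivators that respond to cell tension, 0 were higher in +Cre and 8 (30.8%) in TMPyP4 (blocked 1 and 8, 6-library 3 and 10, GC-corrected 2 and 9), with a median log2 fold change of -0.19. DESeq2 called 1 and 8, and 13 members had an unadjusted p under 0.05 in either direction. Of the 8 calls 3 held under every alternative. *Amotl2*, a feedback inhibitor, had 187, 129.5 and 171 CPM in +Cre against 317, 249.6 and 283 CPM in TMPyP4 (-0.80 ± 0.16), and *Rbms3*, an RNA-binding protein, had 9.18, 10.4 and 9.20 CPM in +Cre against 25.1, 26.1 and 23.95 CPM in TMPyP4 (-1.39 ± 0.078). *Ctgf*, a matricellular target, was not called, at 153, 161 and 149 CPM in +Cre against 166, 173 and 153 CPM in TMPyP4. Calls ended for *Amotl2* (adjusted p 0.0108 with 6 libraries, range 4.9e-15 to 0.0108).

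Of 41 cadherins, connexins, integrins and other adhesion genes tested, 6 (14.6%) were higher in +Cre and 10 (24.4%) in TMPyP4 (blocked 6-library 11 and 12, GC-corrected 10 and 11), with a median log2 fold change of 0.088. Without T1, 3 were higher in +Cre, and without T3, 2 were higher in +Cre. Of the 16 calls 8 held under every alternative. *Cd44*, the hyaluronan receptor, had 406, 452 and 399 CPM in +Cre against 217, 217 and 206 CPM in TMPyP4 (0.98 ± 0.093), and *Vcam1*, which binds leukocyte integrins, had 135, 159 and 146 CPM in +Cre, 91.0, 91.1 and 85.8 CPM in TMPyP4 and 162, 164 and 157 CPM in +GFP (0.72 ± 0.082). Both were higher in +Cre. The collagen-binding integrin *Itga1* had 2.33, 2.73 and 2.81 CPM in +Cre, 9.16, 9.52 and 9.31 CPM in TMPyP4 and 22.4, 34.8 and 27.8 CPM in +GFP (-1.83 ± 0.15), and the atypical cadherin *Cdh13* had 8.65, 7.44 and 8.54 CPM in +Cre against 32.8, 28.2 and 27.6 CPM in TMPyP4 (-1.85 ± 0.097). Both were higher in TMPyP4.

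Of 52 mesenchymal transcription factors tested, 3 (5.77%) were higher in +Cre and 8 (15.4%) in TMPyP4 (blocked 3 and 13), with a median log2 fold change of -0.15. Of the 11 calls 6 held under every alternative. *Foxc1*, of eye and skeletal development, had 45.6, 44.5 and 41.6 CPM in +Cre against 90.6, 82.2 and 79.9 CPM in TMPyP4 (-0.94 ± 0.080), and *Klf4* had 16.0, 10.3 and 13.0 CPM in +Cre against 40.0, 26.3 and 27.7 CPM in TMPyP4 (-1.25 ± 0.24). The 3 higher in +Cre were the cartilage regulator *Sox9*, with 17.4, 12.3 and 14.8 CPM in +Cre, 7.55, 6.29 and 6.81 CPM in TMPyP4 and 20.1, 23.3 and 22.7 CPM in +GFP (1.11 ± 0.16), the limb factor *Tbx3* (0.64 ± 0.13) and *Runx1* (0.37 ± 0.078). Of 36 Hox genes, which hold positional identity, 0 were higher in +Cre and 2 (5.56%) in TMPyP4 (blocked 6-library 1 and 2, GC-corrected 1 and 2). DESeq2 called 0 and 2, and 5 members had an unadjusted p under 0.05 in either direction. Without C2 or T1, 1 was higher in TMPyP4, and without C3 or T2, 0 were higher in TMPyP4. The 2 were *Hoxb3* (-0.48 ± 0.11) and *Hoxb9* (-0.42 ± 0.084), and 17 Hox genes were measured as close. Calls ended for *Klf4* (adjusted p 0.0106 with 6 libraries, range 2.1e-17 to 0.0106), *Runx1* (adjusted p 0.0140 without T3, range 8.1e-07 to 0.0247), *Hoxb3* (adjusted p 0.0156 without C2, 0.0152 without C3, 0.0101 without T1, 0.0110 without T2, range 6.8e-05 to 0.0156) and *Hoxb9* (adjusted p 0.0294 without C3, 0.0103 without T2, range 8.7e-08 to 0.0294).

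RTEL1 acts in genome maintenance. Of 42 DNA damage repair and checkpoint genes, edgeR found that 0 were higher in +Cre and 0 in TMPyP4 (blocked 1 and 3, 6-library 2 and 4, GC-corrected 1 and 5), with a median log2 fold change of -0.032. DESeq2 called 0 and 0, and 9 members had an unadjusted p under 0.05 in either direction. Of the 42 genes 39 were measured as close. The repair gene *Brca1* had 91.0, 103 and 90.8 CPM in +Cre against 97.8, 99.9 and 93.2 CPM in TMPyP4, and the checkpoint kinase gene *Atr* had 47.3, 51.6 and 43.5 CPM in +Cre against 49.9, 53.6 and 50.8 CPM in TMPyP4. Of 50 genes of replication origins and forks, 1 (2.0%) was higher in +Cre and 2 (4.0%) in TMPyP4 (blocked 2 and 2, 6-library 10 and 2, GC-corrected 8 and 2), with a median log2 fold change of 0.045. With DESeq2 the counts were 2 and 2. Without C1 or C2, 2 were higher in +Cre. Without C1, C3, T1 or T2, 1 was higher in TMPyP4, and without C2, 0 were higher in TMPyP4. *Rrm2*, a subunit of ribonucleotide reductase, had 148, 191 and 172 CPM in +Cre against 87.3, 107 and 106 CPM in TMPyP4 (0.77 ± 0.13). The 2 higher in TMPyP4 were *Pole*, of the leading-strand polymerase (-0.29 ± 0.072), and the ligase *Lig1* (-0.24 ± 0.049), and 46 members were measured as close. Calls ended for *Pole* (adjusted p 0.0150 without C2, 0.0991 without C3, 0.0205 without T1, 0.0318 without T2, range 7.1e-05 to 0.0991) and *Lig1* (adjusted p 0.0103 without C1, 0.0115 without C2, range 2.6e-06 to 0.0575).

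Among 45 mitotic and cell cycle genes, 6 (13.3%) were higher in +Cre and 0 in TMPyP4 (blocked 10 and 1, 6-library 11 and 2, GC-corrected 11 and 2), with a median log2 fold change of 0.11. DESeq2 called 8 and 0, and 15 members had an unadjusted p under 0.05 in either direction. Without C3, T1, T2 or T3, 3 were higher in +Cre. *Ccne1*, the cyclin of S-phase entry, had 25.9, 27.3 and 25.3 CPM in +Cre against 12.9, 14.0 and 12.9 CPM in TMPyP4 (0.98 ± 0.077). *Cenpa*, the centromeric histone, had 139, 139 and 136 CPM in +Cre against 101, 110.4 and 105 CPM in TMPyP4 (0.39 ± 0.076). The others called were *Ccnb1* (0.32 ± 0.078), *Aurka* (0.35 ± 0.090), *Cdk1* (0.30 ± 0.063) and *Kif20a* (0.24 ± 0.061). Calls ended for *Ccnb1* (adjusted p 0.0450 without C2, 0.0255 without T1, 0.0101 without T2, 0.0193 without T3, range 1.7e-05 to 0.0450), *Aurka* (adjusted p 0.0279 without C2, 0.0294 without C3, 0.0475 without T1, 0.0150 without T2, 0.0144 without T3, range 1.7e-06 to 0.0475), *Cdk1* (adjusted p 0.0102 without C3, range 3.0e-05 to 0.0167) and *Kif20a* (adjusted p 0.0117 without C1, 0.0458 without C2, 0.0121 without C3, 0.0208 without T1, 0.0185 without T2, 0.0351 without T3, range 5.3e-04 to 0.0478).

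Targets of p53, which acts when DNA is damaged, were counted beside 6.13% of all genes tested higher in +Cre and 9.09% higher in TMPyP4. Their share higher in TMPyP4 was near that of all genes. Of 36 members, 5 (13.9%) were higher in +Cre and 3 (8.33%) in TMPyP4 (blocked 7 and 5, 6-library 12 and 7, GC-corrected 10 and 6), with a median log2 fold change of 0.10. The 5 higher in +Cre were *Ccng1*, *Mdm2*, *Eda2r* (0.66 ± 0.12), *Tigar* (0.45 ± 0.065) and *Cdkn1a*. *Mdm2*, the ubiquitin ligase that limits p53, had 163, 187 and 175 CPM in +Cre, 105, 118 and 115 CPM in TMPyP4 and 77.4, 76.2 and 75.0 CPM in +GFP (0.64 ± 0.078). *Ccng1*, a cyclin induced by p53, had 278, 277 and 256 CPM in +Cre, 159, 172 and 171 CPM in TMPyP4 and 93.0, 84.1 and 82.1 CPM in +GFP (0.69 ± 0.082). At both genes the 3 groups did not overlap, with +Cre the highest and +GFP the lowest. *Cdkn1a*, the cyclin-dependent kinase inhibitor p21, had 123, 113 and 121 CPM in +Cre against 92.6, 92.7 and 89.9 CPM in TMPyP4 (0.38 ± 0.055). The 3 higher in TMPyP4 were *Gadd45a*, a stress protein, with 25.03, 30.0 and 24.2 CPM in +Cre, 63.9, 65.4 and 56.5 CPM in TMPyP4 and 44.1, 45.0 and 45.0 CPM in +GFP (-1.23 ± 0.096), the lipid transfer protein *Pltp* (-1.10 ± 0.20) and the death receptor *Fas* (-0.76 ± 0.16). Calls ended for *Tigar* (adjusted p 0.0113 with 6 libraries, range 1.4e-08 to 0.0113), *Pltp* (adjusted p 0.0175 with 6 libraries, range 4.5e-07 to 0.0175) and *Fas* (adjusted p 0.0127 without C1, 0.0133 without C3, range 9.8e-11 to 0.0133).

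Of 19 helicases linked to G4 DNA, 2 (10.5%) were higher in +Cre and 2 (10.5%) in TMPyP4 (blocked 3 and 4, 6-library 4 and 5, GC-corrected 3 and 6), with a median log2 fold change of -0.030. Without C1 or T2, 1 was higher in +Cre, and without C2, C3, T1 or T3, 0 were higher in +Cre. Without C1, C3 or T2, 1 was higher in TMPyP4. *Rtel1*, the gene that Cre targets, is 1 of the 2 higher in TMPyP4 and is in all these counts, so its call follows from the design. The other was the Bloom syndrome helicase *Blm*, at 47.4, 52.2 and 51.2 CPM in +Cre against 59.6, 68.7 and 60.7 CPM in TMPyP4 (-0.33 ± 0.069). The 2 higher in +Cre were *Dhx9* (0.33 ± 0.086) and *Ercc3* (0.17 ± 0.044), which encodes a transcription factor IIH subunit known to bind G4 rather than unwind it. *Dhx36*, which acts on G4 in RNA, was not called, at 159.7, 198 and 168 CPM in +Cre against 173, 185 and 179.6 CPM in TMPyP4, and 16 of the helicases were measured as close. Calls ended for *Blm* (adjusted p 0.0122 without C1, 0.0289 without C3, 0.0152 without T2, range 2.5e-05 to 0.0403), *Dhx9* (adjusted p 0.0695 without C2, 0.0145 without C3, 0.05 without T1, 0.0325 without T3, range 1.3e-05 to 0.0695) and *Ercc3* (adjusted p 0.0155 without C1, 0.0126 without C2, 0.0161 without C3, 0.0325 without T1, 0.0127 without T2, 0.0315 without T3, range 5.7e-05 to 0.0783).

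Of 25 factors that remove or prevent R-loops, hybrids of RNA and DNA, 2 (8.0%) were higher in +Cre and 1 (4.0%) in TMPyP4 (blocked 3 and 2, 6-library 9 and 2, GC-corrected 5 and 1), with a median log2 fold change of 0.034. Without C3, T1 or T3, 1 was higher in +Cre. Without C1, C2, C3, T1, T2 or T3, 0 were higher in TMPyP4. With DESeq2 the counts were 4 and 1. The helicase *Ddx21*, with 439, 518 and 474 CPM in +Cre against 297, 335 and 319 CPM in TMPyP4 (0.59 ± 0.11), and *Dhx9* were higher in +Cre, and *Rnaseh2a*, a subunit of ribonuclease H, was higher in TMPyP4 (-0.24 ± 0.062). Calls ended for *Ddx21* (adjusted p 0.0193 with 9 libraries, range 5.1e-11 to 0.0193), *Dhx9* (adjusted p 0.0695 without C2, 0.0145 without C3, 0.05 without T1, 0.0325 without T3, range 1.3e-05 to 0.0695) and *Rnaseh2a* (adjusted p 0.0310 without C1, 0.0666 without C2, 0.0182 without C3, 0.0151 without T1, 0.0290 without T2, 0.0365 without T3, range 0.00155 to 0.289).

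Among 21 genes of telomeres and telomerase, 3 (14.3%) were higher in +Cre and 3 (14.3%) in TMPyP4 (blocked 6-library 6 and 4, GC-corrected 7 and 3), with a median log2 fold change of 0.083. Without C3, T1 or T3, 1 was higher in +Cre. With DESeq2 the counts were 5 and 3. Those higher in +Cre were *Dkc1* (0.57 ± 0.11) and *Nop10* (0.35 ± 0.093), of the telomerase and small nucleolar particles, and the nuclease *Dclre1b* (0.29 ± 0.070). Those higher in TMPyP4 were *Tep1* (-0.59 ± 0.11), *Acd*, the shelterin protein TPP1 (-0.37 ± 0.093), and *Ctc1*, of the complex that fills in telomere ends (-0.35 ± 0.071). *Tert*, the catalytic subunit, was not called, at 4.03, 3.33 and 3.28 CPM in +Cre against 4.25, 3.45 and 3.22 CPM in TMPyP4. Calls ended for *Dkc1* (adjusted p 0.0130 with 9 libraries, range 2.9e-11 to 0.0130), *Nop10* (adjusted p 0.0323 without C1, 0.0452 without C2, 0.0108 without C3, 0.0431 without T1, 0.0213 without T2, 0.0295 without T3, range 2.6e-06 to 0.0452), *Dclre1b* (adjusted p 0.0372 without C2, 0.0143 without C3, 0.0360 without T1, 0.0152 without T3, range 3.4e-04 to 0.0581), *Acd* (adjusted p 0.0190 without C1, 0.0352 without C2, 0.0133 without T1, 0.0152 without T2, 0.0389 without T3, range 9.3e-06 to 0.0389) and *Ctc1* (adjusted p 0.0102 with 6 libraries, range 5.3e-06 to 0.0102).

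Interferon-stimulated genes were split. Of 40 members, 5 (12.5%) were higher in +Cre and 5 (12.5%) in TMPyP4 (blocked 6-library 7 and 10), with a median log2 fold change of -0.11. Without C1, T2 or T3, 3 were higher in +Cre. Without C1, C2, T2 or T3, 3 were higher in TMPyP4, and without C3, 2 were higher in TMPyP4. Besides *Ccl5* and *Cxcl10*, the RNA sensor *Ifih1* (0.63 ± 0.13), its relative *Dhx58* (0.66 ± 0.17) and the antiviral *Oasl1* (0.86 ± 0.19) were higher in +Cre. *Stat2* had 15.4, 15.4 and 14.3 CPM in +Cre, 19.1, 22.8 and 22.5 CPM in TMPyP4 and 31.1, 33.1 and 32.5 CPM in +GFP (-0.51 ± 0.090), with +GFP the highest group and +Cre the lowest. *Irf9* (-0.37 ± 0.091), the GTPase *Irgm1* (-0.63 ± 0.13) and *Ifi44* (-2.05 ± 0.36) were also higher in TMPyP4. Calls ended for *Ifih1* (adjusted p 0.0117 with 6 libraries, range 7.7e-07 to 0.0117), *Dhx58* (adjusted p 0.0356 without C1, 0.0224 without C3, 0.0115 without T1, 0.0427 without T2, 0.0382 without T3, range 0.00189 to 0.0427), *Oasl1* (adjusted p 0.0166 without C1, 0.0168 without T2, 0.0147 without T3, range 1.2e-05 to 0.0184), *Stat2* (adjusted p 0.0144 with 6 libraries, range 2.1e-06 to 0.0144), *Irf9* (adjusted p 0.0287 without C1, 0.0215 without C2, 0.0224 without C3, 0.0346 without T2, 0.0185 without T3, range 4.3e-04 to 0.0394) and *Irgm1* (adjusted p 0.0181 without C3, range 1.7e-10 to 0.0181).

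TMPyP4 is a porphyrin, and genes of heme, porphyrin and iron handling were followed for that reason. Of 35 members, 5 (14.3%) were higher in +Cre and 4 (11.4%) in TMPyP4 (blocked 6-library 8 and 5), with a median log2 fold change of 0.031. Without C2, T1 or T3, 3 were higher in +Cre. Without C1, C2 or T3, 2 were higher in TMPyP4. *Cpox*, an enzyme of porphyrin synthesis, had 41.2, 47.6 and 42.8 CPM in +Cre, 71.3, 80.5 and 83.5 CPM in TMPyP4 and 40.9, 30.2 and 32.3 CPM in +GFP, with TMPyP4 the highest group (-0.84 ± 0.12). *Tfrc*, the transferrin receptor, had 327, 365 and 325 CPM in +Cre, 166, 182 and 176 CPM in TMPyP4 and 161, 109 and 109 CPM in +GFP, with +Cre the highest (0.96 ± 0.12). The exporter gene *Abcg2* had 52.5, 60.1 and 55.1 CPM in +Cre against 34.8, 35.1 and 37.1 CPM in TMPyP4 (0.65 ± 0.078). The others higher in +Cre were the heme exporter *Mfsd7b* (0.41 ± 0.095) and the iron transporters *Slc25a37* (0.37 ± 0.084) and *Slc11a2* (0.28 ± 0.051). The others higher in TMPyP4 were the heme-binding protein *Hebp1* (-0.52 ± 0.13), the heme transporter *Slc48a1* (-0.25 ± 0.054) and the iron exporter *Slc40a1* (-1.15 ± 0.21). *Hmox1*, which degrades heme, was not called, at 54.1, 45.5 and 57.0 CPM in +Cre against 58.1, 56.6 and 60.9 CPM in TMPyP4. Calls ended for *Mfsd7b* (adjusted p 0.0213 without C2, 0.0128 without T1, 0.0231 without T3, range 7.3e-07 to 0.0324), *Slc25a37* (adjusted p 0.0149 without C1, 0.0143 without C2, 0.0239 without T1, 0.0121 without T3, range 2.3e-06 to 0.0239), *Slc11a2* (adjusted p 0.0205 with 6 libraries, 0.0128 with 9 libraries, range 7.5e-07 to 0.0205), *Hebp1* (adjusted p 0.0182 without C1, 0.0370 without C2, 0.0276 without T2, 0.0174 without T3, range 3.5e-05 to 0.0370), *Slc48a1* (adjusted p 0.0119 without C1, 0.0154 without C2, 0.0467 without C3, 0.0112 without T3, range 5.4e-04 to 0.472) and *Slc40a1* (adjusted p 0.0139 with 9 libraries, range 3.4e-08 to 0.0139).

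Of 31 genes that respond to NRF2 or to the aryl hydrocarbon receptor, 3 (9.68%) were higher in +Cre and 6 (19.4%) in TMPyP4 (blocked 6 and 7, 6-library 10 and 7, GC-corrected 9 and 8), with a median log2 fold change of 0.029. Without T1 or T2, 1 was higher in +Cre. With DESeq2 the counts were 5 and 6. Of the 9 calls 4 held under every alternative. *Cyp1b1*, a cytochrome under that receptor, had 50.1, 52.95 and 50.6 CPM in +Cre, 111, 114 and 116 CPM in TMPyP4 and 160.4, 199 and 181 CPM in +GFP (-1.15 ± 0.075). The receptor gene *Ahr* had 21.1, 22.5 and 20.2 CPM in +Cre against 30.0, 30.1 and 31.5 CPM in TMPyP4 (-0.52 ± 0.085). Both were higher in TMPyP4. The 3 higher in +Cre were antioxidant genes, *Srxn1*, with 53.5, 66.4 and 58.7 CPM in +Cre against 40.5, 41.5 and 40.4 CPM in TMPyP4 (0.55 ± 0.085), *Prdx1* (0.44 ± 0.11) and *Gsr* (0.34 ± 0.079). The NRF2 target *Nqo1* had 18.2, 20.7 and 20.6 CPM in +Cre against 14.4, 16.5 and 17.4 CPM in TMPyP4 and was not called by edgeR (adjusted p 0.112) but called in 3 alternative fits, with the block in 21 libraries (0.00591) among them. Calls ended for *Srxn1* (adjusted p 0.0774 with the GC correction, 0.0285 with that and the block, range 1.2e-09 to 0.0774), *Prdx1* (adjusted p 0.0146 without C1, 0.0402 without C2, 0.0157 without C3, 0.0425 without T1, 0.0164 without T2, 0.0189 without T3, range 1.0e-07 to 0.0425) and *Gsr* (adjusted p 0.0111 without C2, 0.0108 without T1, 0.0252 without T2, range 5.0e-06 to 0.0266).

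Of 36 lysosome and autophagy genes, 1 (2.78%) was higher in +Cre and 3 (8.33%) in TMPyP4 (blocked 1 and 5, 6-library 1 and 11, GC-corrected 1 and 6), with a median log2 fold change of -0.14. Without C1, C2 or T2, 1 was higher in TMPyP4, and without T3, 0 were higher in TMPyP4. With DESeq2 the counts were 1 and 5. The hydrolase *Gusb* was higher in +Cre (0.34 ± 0.059). *Map1lc3a*, of autophagosomes (-0.68 ± 0.14), the transcription factor *Mitf* (-0.40 ± 0.099) and the channel gene *Mcoln1* (-0.37 ± 0.095) were higher in TMPyP4, and 27 members were measured as close. Calls ended for *Gusb* (adjusted p 0.0213 with 6 libraries, range 1.8e-06 to 0.0213), *Map1lc3a* (adjusted p 0.0112 without T3, range 2.2e-05 to 0.0382), *Mitf* (adjusted p 0.0151 without C1, 0.0369 without C2, 0.0357 without C3, 0.0403 without T2, 0.0173 without T3, range 0.00241 to 0.0403) and *Mcoln1* (adjusted p 0.0191 without C1, 0.0327 without C2, 0.0199 without C3, 0.0283 without T1, 0.0170 without T2, 0.0237 without T3, range 1.5e-05 to 0.0327).

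Of 26 glycolysis genes, 5 (19.2%) were higher in +Cre and 2 (7.69%) in TMPyP4 (blocked 6-library 10 and 5, GC-corrected 11 and 3), with a median log2 fold change of 0.25. Without C1, C3, T1, T2 or T3, 3 were higher in +Cre. Without C1, C2, C3, T1 or T2, 1 was higher in TMPyP4. *Pgam1*, a mutase of the lower pathway, had 1153, 1178 and 1293 CPM in +Cre against 744, 781 and 767 CPM in TMPyP4 (0.66 ± 0.066), and *Ldha*, which makes lactate, had 962, 817 and 1073 CPM in +Cre against 666, 645 and 675 CPM in TMPyP4 (0.52 ± 0.088). *Pgk1* (0.49 ± 0.091), *Pkm* (0.48 ± 0.13) and *Gpi1* (0.37 ± 0.090) were the others higher in +Cre. The other lactate dehydrogenase chain, *Ldhb*, had 24.6, 25.7 and 24.1 CPM in +Cre, 37.2, 35.7 and 32.9 CPM in TMPyP4 and 60.7, 97.4 and 93.0 CPM in +GFP and was higher in TMPyP4 (-0.51 ± 0.12), as was the phosphofructokinase *Pfkp* (-0.37 ± 0.067). Calls ended for *Ldha* (adjusted p 0.0108 with 6 libraries, range 5.4e-09 to 0.0108), *Pkm* (adjusted p 0.0345 without C1, 0.0251 without C3, 0.0247 without T1, 0.0416 without T2, 0.0282 without T3, range 5.3e-07 to 0.0416), *Gpi1* (adjusted p 0.0152 without C1, 0.0123 without C3, 0.0221 without T1, 0.0211 without T2, 0.0140 without T3, range 1.8e-06 to 0.0264), *Ldhb* (adjusted p 0.0134 without C1, 0.0104 without C2, 0.0312 without C3, 0.0178 without T1, 0.0132 without T2, range 9.7e-08 to 0.0509) and *Pfkp* (adjusted p 0.0295 with 6 libraries, 0.0137 with 9 libraries, range 5.8e-06 to 0.0295).

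Of 54 nuclear-encoded subunits of the respiratory chain, 1 (1.85%) was higher in +Cre and 0 in TMPyP4 (blocked 3 and 0, 6-library 12 and 1, GC-corrected 7 and 1), with a median log2 fold change of 0.12. DESeq2 called 2 and 0, and 10 members had an unadjusted p under 0.05 in either direction. Without C1, C2, C3, T1, T2 or T3, 0 were higher in +Cre. The 1 called was *Sdhd*, of complex II (0.29 ± 0.074). Calls ended for *Sdhd* (adjusted p 0.0161 without C1, 0.0162 without C2, 0.0220 without C3, 0.0347 without T1, 0.0202 without T2, 0.0135 without T3, range 1.4e-05 to 0.0347). Of 61 cytosolic ribosomal protein genes, edgeR found that 0 were higher in +Cre and 0 in TMPyP4 (blocked 0 and 1, 6-library 5 and 2, GC-corrected 0 and 1), with a median log2 fold change of 0.023. DESeq2 called 0 and 0, and 3 members had an unadjusted p under 0.05 in either direction. Without C2, 1 was higher in +Cre. Of the 61 genes 50 were measured as close. Of 23 clustered histone genes tested, 1 (4.35%) was higher in +Cre and 0 in TMPyP4 (blocked 6-library 5 and 1, GC-corrected 2 and 0), with a median log2 fold change of 0.94. DESeq2 called 2 and 0, and 3 members had an unadjusted p under 0.05 in either direction. Without C3 or T2, 2 were higher in +Cre. The 1 called was *Hist1h2bc*, with 164, 118 and 139 CPM in +Cre against 59.8, 51.4 and 52.6 CPM in TMPyP4 (1.36 ± 0.15), and 0 of the 23 were measured as close. Of 44 histone genes listed only these 23 passed the filter on low counts. The authors prepared the libraries with an mRNA kit. How fully histone transcripts enter such libraries was not tested, so these counts may not stand for all histone RNA.

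By CPM, which does not allow for transcript length, the 10 most abundant called genes were *Ncl*, *Sparc*, *Bgn*, *Hspa9*, *Cald1*, *Psat1*, *Calr*, *Fstl1*, *Hsp90aa1* and *Pkm*. *Ncl*, which encodes the G4-binding nucleolar protein nucleolin, had 2107, 2693 and 2361 CPM in +Cre, 1566, 1833 and 1729 CPM in TMPyP4 and 1104, 772 and 800.0 CPM in +GFP (0.48 ± 0.11). The +Cre libraries of *Ncl* were the highest of the 9 and its +GFP libraries the lowest. *Calr*, a chaperone of the endoplasmic reticulum, had 1185, 1441 and 1296 CPM in +Cre against 862, 1012 and 937 CPM in TMPyP4 (0.48 ± 0.089). *Fstl1*, a secreted glycoprotein, had 822, 849.6 and 829 CPM in +Cre, 1500.0, 1380.0 and 1350.0 CPM in TMPyP4 and 1931, 1954 and 1940.0 CPM in +GFP (-0.76 ± 0.054), and *Sparc*, a collagen-binding matrix protein, had 1472, 1565 and 1659 CPM in +Cre against 2027, 2102 and 2128 CPM in TMPyP4 (-0.41 ± 0.060). With the replicate block the adjusted p was 0.0106 for *Ncl* and 0.0155 for *Hspa9*, a mitochondrial chaperone (-0.39 ± 0.10). The others had log2 fold changes of -0.25 ± 0.058 for the proteoglycan *Bgn*, -0.29 ± 0.072 for the actin-binding *Cald1*, -0.41 ± 0.0996 for *Psat1*, of serine synthesis, 0.35 ± 0.080 for *Hsp90aa1* and 0.48 ± 0.13 for *Pkm*. Calls ended for *Ncl* (adjusted p 0.0264 without C2, 0.0105 without C3, 0.0270 without T1, 0.0148 without T3, range 2.5e-08 to 0.0349), *Hspa9* (adjusted p 0.0482 without C1, 0.0996 without C3, 0.0170 without T1, 0.0420 without T2, 0.0237 without T3, range 4.4e-06 to 0.0996), *Calr* (adjusted p 0.0167 with 6 libraries, range 1.4e-08 to 0.0167), *Sparc* (adjusted p 0.0115 with 6 libraries, range 1.2e-08 to 0.0115), *Bgn* (adjusted p 0.0216 without C1, 0.0894 without C3, 0.0240 without T2, range 0.00151 to 0.0894), *Cald1* (adjusted p 0.0312 without C1, 0.0141 without C2, 0.0741 without C3, 0.0233 without T2, 0.0260 without T3, range 1.7e-04 to 0.0741), *Psat1* (adjusted p 0.0210 without C1, 0.0146 without C2, 0.0509 without C3, 0.0167 without T1, 0.0173 without T2, 0.0182 without T3, range 1.5e-06 to 0.0509), *Hsp90aa1* (adjusted p 0.0204 without C2, 0.0114 without T1, 0.0129 without T2, 0.0161 without T3, range 8.7e-06 to 0.0290) and *Pkm* (adjusted p 0.0345 without C1, 0.0251 without C3, 0.0247 without T1, 0.0416 without T2, 0.0282 without T3, range 5.3e-07 to 0.0416).

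Of 17 oncogenes and related genes with a G4 described in their promoter, 2 (11.8%) were higher in +Cre and 4 (23.5%) in TMPyP4, with a median log2 fold change of -0.025 (0.0023 with DESeq2 size factors and 0.013 with a GC correction). Without C1, C2, C3 or T1, 1 was higher in +Cre, and without T2 or T3, 0 were higher in +Cre. Without C1, C3 or T2, 2 were higher in TMPyP4. *Pdgfrb*, a receptor of platelet-derived growth factor, had 101, 75.9 and 93.5 CPM in +Cre, 189.6, 159 and 167 CPM in TMPyP4 and 269, 320.4 and 295 CPM in +GFP (-0.93 ± 0.12). The others higher in TMPyP4 were the tumour suppressor *Rb1* (-0.58 ± 0.10), the hypoxia factor *Hif1a* (-0.40 ± 0.086) and the vessel growth factor *Vegfa* (-0.39 ± 0.086). The cyclin gene *Ccnd1*, with 461, 413 and 468 CPM in +Cre, 308, 277 and 305 CPM in TMPyP4 and 239.7, 135 and 151 CPM in +GFP (0.59 ± 0.15), and the chaperone gene *Hsp90aa1* (0.35 ± 0.080) were higher in +Cre. *Myc* was not called, at 169.6, 136 and 177 CPM in +Cre against 159, 131 and 145 CPM in TMPyP4. Calls ended for *Rb1* (adjusted p 0.0117 without C3, range 3.4e-09 to 0.0134), *Hif1a* (adjusted p 0.0129 without C1, 0.0567 without C3, 0.0129 without T2, range 5.3e-07 to 0.0567), *Vegfa* (adjusted p 0.0123 without C1, 0.0169 without C2, 0.0156 without T2, 0.0144 without T3, range 7.5e-07 to 0.0235), *Ccnd1* (adjusted p 0.0226 without C1, 0.0135 without C3, 0.0179 without T1, 0.0326 without T2, 0.0198 without T3, range 2.9e-11 to 0.0474) and *Hsp90aa1* (adjusted p 0.0204 without C2, 0.0114 without T1, 0.0129 without T2, 0.0161 without T3, range 8.7e-06 to 0.0290).

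Letters that can fold into G4 were searched in RefSeq promoters of GRCm38, as 4 runs of at least 3 G with gaps of 1 to 7 bases on the coding strand, or the same of C. Of all 32851 promoter sequences 18.6% hold the motif, and 28.7% with gaps of up to 12 bases. Of the genes tested that had a promoter 31.7% hold it, and 47.1% with the longer gaps. A promoter was found for 79.0% of the genes tested, under the 80% needed, so shares are not compared between genes higher in +Cre and in TMPyP4. Stretches of 3 of the 24 largest differences are shown to let the letters be seen, with the motif in capitals. *Sema7a* was higher in +Cre, and *Col8a2* and *Ptx3* were higher in TMPyP4. Folding in these cells was not measured.
Sema7a, chr9:57940002-57940078, plus strand: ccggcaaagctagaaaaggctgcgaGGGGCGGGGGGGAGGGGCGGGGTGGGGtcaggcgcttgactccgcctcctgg
Col8a2, chr4:126286726-126286793, plus strand: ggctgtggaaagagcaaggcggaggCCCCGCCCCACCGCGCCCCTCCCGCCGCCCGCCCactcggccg
Ptx3, chr3:66219824-66219886, plus strand: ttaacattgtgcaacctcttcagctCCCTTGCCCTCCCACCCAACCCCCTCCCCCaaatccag

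The genes were also divided by the length they span. Of 1817 genes that span at least 100 kb, 4.84% were higher in +Cre and 21.5% higher in TMPyP4, with a median log2 fold change of -0.14. For 11860 shorter genes the shares were 6.34% and 7.18%. *Cdh13*, *Rbms3*, *Itga11*, *Fbn2* and the adhesion gene *Kirrel3* (-1.47 ± 0.14) are long genes higher in TMPyP4. With a GC correction of each library and the replicate block, the shares were 7.93% and 30.6% of long genes against 13.9% and 12.7% of shorter ones. The difference also moved with transcript GC content. The median log2 fold change was 0.035 over 2725 genes of 31.2% to 45.3% GC and -0.069 over 2725 genes of 56.1% to 72.5% GC. With the GC correction and the block these medians were 0.0068 and 0.011. GC content was known for 99.3% of genes tested and span for 99.7%.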

How the data were processed

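RNA-seq libraries of mouse embryonic fibroblasts were taken from the deposited gene table. Per the labels and the methods of the authors, reads were trimmed with cutadapt 1.9.1, aligned with STAR 2.5.2a and counted with RSEM 1.3.0, which gave the deposited expected counts (whole numbers, not normalized). The deposited TPM values, scaled by the authors for transcript length with RSEM, were used only to compare levels between genes and to sum the fibroblast markers in each library. Of 24454 genes 23360 matched the annotation by symbol and 974 by a single synonym. *Opt*, whose synonym points to *Suco*, was left out of that match. Counts of all 21 libraries were fitted with edgeR 4.0.16 in R 4.3.3 (TMM normalization, low-count filter by group, robust quasi-likelihood test, 7 groups, 14 residual degrees of freedom), and p-values were adjusted by Benjamini-Hochberg. Intervals are 95%. Pair differences used a prior count of 2. Named genes were *Rtel1*, the 12 largest differences each way at a mean of at least 5 CPM, up to 4 each way per list by the same rule, and the 10 most abundant called genes, of which a few are not reported here. Members and lists were chosen with earlier results of these data known, and 5 lists and the TGATGNAA motif were added after seeing the data. Alternatives were DESeq2 1.42.0, other scaling, filters, thresholds, libraries, GC correction (loess, span 0.3), a replicate block and leaving out each library. Figures were drawn with matplotlib 3.10.9.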

Additional observations from a re-analysis of the deposited data

How the results depend on the processing

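With 2088 genes called (841 higher in +Cre, 1247 in TMPyP4), a fit of only the 6 libraries called 933 (363 and 570), and of the 9 unmodified *Rtel1* floxed libraries 1270 (518 and 752). The replicate block within the 6 libraries called 4563 (2127 and 2436), and the GC correction with the replicate block 3846 (1790 and 2056). A GC correction alone put 1363 higher in +Cre. An adjusted p of at most 0.05 gave 3452 (1499 and 1953), and a minimum absolute log2 fold change of 1 gave 466 (183 and 283). Leaving out 1 library gave 540 to 675 higher in +Cre and 752 to 991 higher in TMPyP4. The promoter G4 motif was in 18.6% of promoters, or 28.7% with gaps of up to 12 bases. The causes of these shifts were not tested. DESeq2 called 2407 genes, 1996 of them among the 2088, and the replicate block over all 21 libraries 2833, 2024 of them among the 2088. Of the 2088 genes 1080 (51.7%) were called in all 6 fits with 1 library left out. Of 156 named genes 89 kept their call under every alternative that gave them a value, the minimum fold aside, 67 lost it under at least 1 and 0 reversed direction. The 6-library fit ended 56 of these calls. Of 1080 alternative values of the 60 list counts, 325 moved by over 1.5 times.

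With 3 libraries a group and 32069888 to 43896564 counts each, 4344 genes were neither called nor measured as close without a replicate block, and 3366 with it in 21 libraries. The viruses, the ligand and the exposure time differ together between the groups and cannot be told apart, and whether replicates came from separate embryos is not stated.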

Other observations

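The lists in this section were all added after seeing the data. Most describe protein synthesis and turnover, and the last holds AP-1 and immediate early genes. Of 20 cytosolic aminoacyl-tRNA synthetases, which charge tRNAs, 1 (5.0%) was higher in +Cre and 8 (40.0%) in TMPyP4 (blocked 6-library 6 and 11, GC-corrected 2 and 8), with a median log2 fold change of -0.24. Without C2, 0 were higher in +Cre. Without C3, 5 were higher in TMPyP4. With DESeq2 the counts were 3 and 8. Of the 9 calls 5 held under every alternative. *Sars* had 413, 385 and 462 CPM in +Cre against 676, 647 and 693 CPM in TMPyP4 (-0.68 ± 0.076), and *Aars* had 416, 394 and 426 CPM in +Cre against 638, 611 and 623 CPM in TMPyP4 (-0.60 ± 0.077). The 1 higher in +Cre was *Qars* (0.28 ± 0.057). Calls ended for *Qars* (adjusted p 0.0128 without C2, range 5.4e-05 to 0.0359). Of 20 nucleolar factors of ribosome assembly, 10 (50%) were higher in +Cre and 0 in TMPyP4 (blocked 6-library 19 and 0), with a median log2 fold change of 0.39. DESeq2 called 14 and 0, and 16 members had an unadjusted p under 0.05 in either direction. Without C2, 5 were higher in +Cre, and without C3 or T1, 3 were higher in +Cre, and without T2, 6 were higher in +Cre, and without T3, 4 were higher in +Cre. Of the 10 calls 0 held under every alternative. *Nop58*, of small nucleolar particles, had 379.5, 414 and 386 CPM in +Cre against 289.9, 306 and 297 CPM in TMPyP4 (0.40 ± 0.079). Calls ended for *Nop58* (adjusted p 0.0165 with 9 libraries, range 2.5e-07 to 0.0165).

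Of 14 subunits of the 20S proteasome core, 6 (42.9%) were higher in +Cre and 0 in TMPyP4 (blocked 6-library 11 and 0, GC-corrected 11 and 0), with a median log2 fold change of 0.30. DESeq2 called 9 and 0, and 11 members had an unadjusted p under 0.05 in either direction. Without T3, 3 were higher in +Cre. Of the 6 calls 2 held under every alternative. *Psma5* had 358, 375 and 361 CPM in +Cre against 223, 261 and 261 CPM in TMPyP4 (0.55 ± 0.11). Of 8 subunits of the cytosolic chaperonin, 1 (12.5%) was higher in +Cre and 0 in TMPyP4 (blocked 6-library 6 and 0, GC-corrected 4 and 0), with a median log2 fold change of 0.21. DESeq2 called 2 and 0, and 5 members had an unadjusted p under 0.05 in either direction. Without C2, C3, T1, T2 or T3, 0 were higher in +Cre. The 1 called was *Cct3* (0.41 ± 0.097). Calls ended for *Cct3* (adjusted p 0.0246 without C2, 0.0152 without C3, 0.0280 without T1, 0.0105 without T2, 0.0109 without T3, range 3.1e-07 to 0.0280).

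Of 20 AP-1 and immediate early genes, 5 (25%) were higher in +Cre and 1 (5.0%) in TMPyP4 (blocked 6-library 11 and 3, GC-corrected 9 and 1), with a median log2 fold change of 0.25. The 5 higher in +Cre were *Fosl1*, a partner in AP-1, with 100.4, 66.2 and 89.1 CPM in +Cre against 37.8, 29.7 and 30.5 CPM in TMPyP4 (1.39 ± 0.24), the phosphatases of MAP kinases *Dusp4* (0.89 ± 0.14), *Dusp5* (1.12 ± 0.25) and *Dusp6* (0.74 ± 0.11), and the feedback inhibitor *Spry4* (0.94 ± 0.15). *Dusp1*, also a phosphatase of MAP kinases, had 69.2, 87.3 and 84.9 CPM in +Cre against 123, 144 and 123 CPM in TMPyP4 and was higher in TMPyP4 (-0.69 ± 0.12). The other Fos and Jun genes of the list were not called by edgeR. Log2 fold changes were 0.79, 0.51 and 0.26 for *Fosb*, *Jun* and *Junb*, and -0.43, -0.22 and -0.35 for *Fos*, *Fosl2* and *Jund*. Calls ended for *Dusp5* (adjusted p 0.0180 without C1, 0.0144 without T2, 0.0205 without T3, range 6.0e-12 to 0.0205).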
